A study of Mus musculus with 12 samples.

Results

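The dual-specificity MAP kinase phosphatase genes were followed in epididymal white adipose tissue (eWAT), the fat pad beside the epididymis, 1 h after mice received epinephrine. The 10 genes Dusp1, Dusp2, Dusp4, Dusp5, Dusp6, Dusp7, Dusp8, Dusp10, Dusp14 and Dusp16 were chosen by symbol among 27179 rows of the deposited count table, and 10 of 10 were found. All 12 mice were C57BL/6J males on chow with no genetic modification named in the labels. The 6 mice of the vehicle group were injected with saline into the peritoneum, and the 6 of the epinephrine group with sodium epinephrine at 0.5 mg/kg. The ages listed in the labels run from 12 to 17 weeks for vehicle and from 18 to 23 weeks for epinephrine, 1 week more from each sample to the next, so listed age and treatment cannot be told apart by comparing the groups. The hormone was given to the whole animal, and the RNA came from whole tissue, in which fewer cells of a type and less RNA per cell cannot be told apart.

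MAP kinases are switched on by phosphorylation of a threonine and a nearby tyrosine, and dual-specificity phosphatases switch them off by removing both phosphates. Many of these phosphatase genes are themselves induced by the signalling that they limit, so that their transcripts serve as a feedback arm of the pathway. The nuclear inducible enzymes are encoded by Dusp1, Dusp2, Dusp4 and Dusp5, of which DUSP1, DUSP2 and DUSP4 act on several MAP kinases and DUSP5 on ERK. Dusp6 and Dusp7 encode cytoplasmic enzymes selective for ERK, while Dusp8, Dusp10 and Dusp16 encode enzymes selective for the stress-activated kinases JNK and p38. Dusp14 encodes a small atypical phosphatase without the MAP kinase-binding domain. Epinephrine raises cyclic AMP in adipocytes through beta-adrenergic receptors, and the transcription factor CREB, which binds the cyclic AMP response element (CRE), acts downstream of it.

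The upstream sequences of 4 members are shown because their transcripts rose or lay higher with epinephrine and their windows differ in the elements they hold. Each window runs from 250 to 51 bases before the RefSeq transcription start in GRCm38.p6 and is written 5′ to 3′ on the gene's strand. Capitals mark the CRE, its half-site (TGACG, or CGTCA where it lies on the other strand) and the CArG box bound by serum response factor.
Dusp1: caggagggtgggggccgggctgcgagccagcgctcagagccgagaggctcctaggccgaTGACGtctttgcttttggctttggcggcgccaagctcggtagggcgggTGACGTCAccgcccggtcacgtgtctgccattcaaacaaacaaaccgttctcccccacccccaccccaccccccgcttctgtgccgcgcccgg
Dusp8: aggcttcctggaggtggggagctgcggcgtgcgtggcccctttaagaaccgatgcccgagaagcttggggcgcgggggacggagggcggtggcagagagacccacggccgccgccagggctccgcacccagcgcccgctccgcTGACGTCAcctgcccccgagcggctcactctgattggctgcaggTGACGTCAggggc
Dusp5: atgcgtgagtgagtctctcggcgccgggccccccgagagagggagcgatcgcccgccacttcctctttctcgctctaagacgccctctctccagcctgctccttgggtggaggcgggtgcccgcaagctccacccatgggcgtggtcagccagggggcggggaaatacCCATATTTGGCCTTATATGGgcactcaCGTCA
Dusp10: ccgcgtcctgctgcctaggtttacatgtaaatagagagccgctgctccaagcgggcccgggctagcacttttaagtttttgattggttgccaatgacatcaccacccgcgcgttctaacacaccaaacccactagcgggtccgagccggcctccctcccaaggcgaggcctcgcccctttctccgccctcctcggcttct

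The Dusp1 window (chr17:26508523-26508722, minus strand) holds 1 full CRE, TGACGTCA, starting 143 bases upstream, and a separate half-site, TGACG, starting 191 bases upstream. The Dusp8 window (chr7:142095335-142095534, minus strand) holds 2 full CREs, starting 107 and 63 bases upstream. The Dusp5 window (chr19:53528895-53529094, plus strand) holds no full CRE but a half-site 55 bases upstream and 2 adjoining CArG boxes that start 82 and 72 bases upstream. In the Dusp10 window (chr1:184034131-184034330, plus strand) none of these letters was found. RefSeq windows were matched for 9 of the 10 members, all but Dusp4, and both strands were searched. Of the other members, the Dusp16 window held a half-site and an EGR site, GCGNGGGCG, and that of Dusp2 an EGR site. The Dusp16 window (chr6:134792679-134792878, minus strand) lies within its own RefSeq gene, which spans 134715468 to 134807063. So do the Dusp8 window, in a gene spanning 142079487 to 142095907, and the Dusp14 window, in a gene spanning 84048033 to 84069256. The Dusp7 window ends at 106368581, past the start of its RefSeq gene at 106368560. In the Dusp14 window 100 bases lie in an exon annotated to Dusp14. A full CRE was present in 0.828% of 32851 windows of the same length, a half-site (which every full CRE also contains) in 12.7%, a CArG box in 1.16% and an EGR site in 3.04%. The AP-1 site TGANTCA and the heat shock pairs GAANNTTC and TTCNNGAA, present in 5.57%, 5.17% and 5.64% of windows, were found in no member's window. These matches describe letters only, since the files hold no measurement of binding. In GENCODE M21 the Dusp8 and Dusp10 windows lie within introns of transcripts of the same genes that start farther upstream, 171 bases of the Dusp10 window lie in an exon of the antisense gene 1700056E22Rik, and all 200 bases of the Dusp5 window in an exon of the antisense gene AC137853.2.

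Reads in genes numbered from 24821601 to 34405433 in the 12 libraries, and all 10 members passed the filter on low counts. Adipocyte markers were abundant in every library, with Adipoq at 1144 to 3392 CPM (the count relative to the total of its library, scaled with TMM factors), and 0 of 8 such markers passed the test (edgeR; 0 also at an unadjusted p under 0.05 and in DESeq2). Transcripts of the neighbouring epididymis varied widely within both groups: 11 markers summed to between 8.81 and 40280 CPM with vehicle and between 30.4 and 31350 CPM with epinephrine, and 0 of the 11 passed (edgeR; 0 also at an unadjusted p under 0.05 and in DESeq2). Their sum was highest in vehicle 2, epinephrine 1 and epinephrine 2, in which the 8 adipocyte markers summed to 8603, 12310 and 20290 CPM, the lowest values of each group and below the epididymal sums of 40280, 31350 and 23020 CPM in the same libraries. The TMM factor averaged 1.04 ± 0.0473 in vehicle libraries and 0.964 ± 0.038 in epinephrine libraries (SD; two-sided exact permutation p = 0.0195). Scaled by library size alone, the median log2 fold change of all genes was -0.108 and the call of Dusp4 ended (log2 fold change 0.60, edgeR adjusted p = 0.0584). The part of the epididymal RNA in the results was not tested, and results are also given without those 3 libraries where that moves them.

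Epinephrine was followed by higher transcript levels in 5 of the 10 genes and a lower level in 1. Dusp10, Dusp8 and Dusp1 rose 4.25-fold, 3.87-fold and 3.42-fold, and differences among these were not called in the tests of pairs below. Dusp4 and Dusp16 rose 1.64-fold and 1.44-fold, while Dusp7 fell to 0.621 of its vehicle level. Dusp2, Dusp5, Dusp6 and Dusp14 did not pass the test (edgeR's quasi-likelihood test, Benjamini-Hochberg adjusted p under 0.05 over 16175 genes). Among all genes tested, 2.65% were called higher and 3.58% lower. By type, 3 of 3 JNK/p38-selective genes were higher, 2 of 4 nuclear inducible genes were higher, and of the 2 ERK-selective cytoplasmic genes 1 was lower and 0 were higher. Dusp9, an ERK-preferring cytoplasmic phosphatase gene outside the 10, was higher (log2 fold change 1.45, edgeR adjusted p = 0.00987) and enters no count or median here. The median log2 fold change was 1.95 for the JNK/p38-selective genes, 0.92 for the nuclear genes and -0.20 for the ERK-selective cytoplasmic genes, against -0.00059 over all genes tested. The groups did not overlap for 2 members, Dusp8 and Dusp10, both higher, which was the case for 2.04% of all genes.

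**Figure D1:**
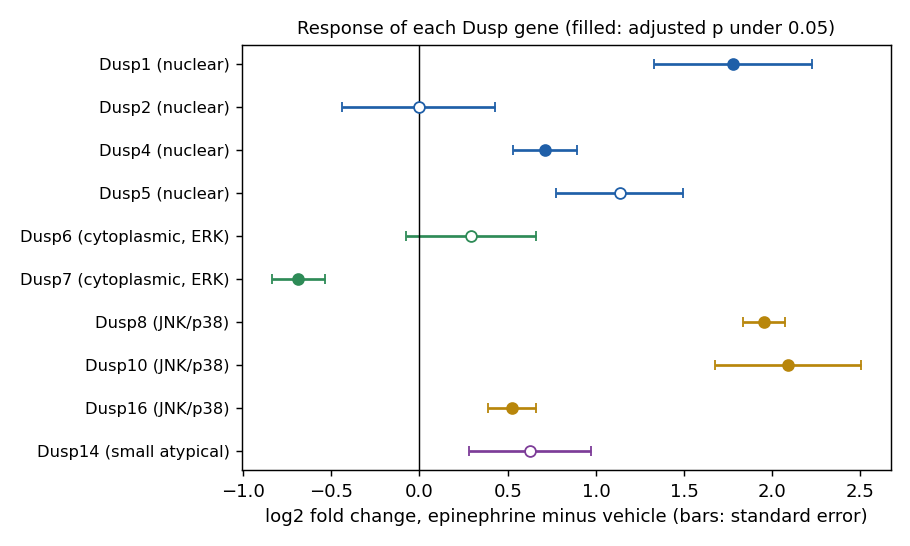
Log2 fold change of each gene with epinephrine against vehicle (x axis, bars are standard errors), coloured by type of phosphatase, with filled points for an adjusted p under 0.05. The 3 JNK/p38-selective genes lie right of 0 and are filled, and Dusp7 is the filled point left of 0.

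All 3 JNK/p38-selective genes rose, Dusp8 and Dusp10 further than Dusp16. Dusp8, which encodes a phosphatase known from brain and heart for acting on JNK and p38, lay between 15.1 and 20.6 CPM (median 16.7) in vehicle libraries. With epinephrine it lay between 51.3 and 78.9 CPM (median 67.1). All 6 epinephrine libraries were above all 6 vehicle libraries, with no library standing apart. Its mean went from 17.3 ± 2.26 to 66.9 ± 10.3 CPM (SD, n = 6 each), a log2 fold change of 1.95 (SE 0.12, edgeR adjusted p = 6.17e-06). The difference passed with each of the 12 libraries left out in turn. It was 1.81 among replicate numbers 1 to 3, where no gene passed (edgeR adjusted p = 0.1535), and 2.10 among numbers 4 to 6 (edgeR adjusted p = 0.000397).

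Dusp10 encodes a phosphatase for JNK and p38 that is found in both nucleus and cytoplasm. It lay between 7.08 and 39.8 CPM (median 23.9) with vehicle and between 46.8 and 150.5 CPM (median 117) with epinephrine. The groups did not overlap, although vehicle 2, epinephrine 1 and epinephrine 2, the libraries richest in epididymal transcripts, were the lowest of their groups at 7.08, 59.4 and 46.8 CPM. The mean went from 24.1 ± 12.2 to 102.5 ± 40.5 CPM (SD, n = 6 each), with a log2 fold change of 2.09 (SE 0.41, edgeR adjusted p = 0.0115). Without those 3 libraries the log2 fold change was 2.21 (edgeR adjusted p = 0.00107).

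Dusp16, the third gene of this type, moved less. Its product carries both nuclear import and export signals and prefers JNK. It lay between 31.6 and 51.7 CPM (median 37.9) with vehicle and between 48.7 and 65.9 CPM (median 57.7) with epinephrine. Epinephrine 6, at 48.7 CPM, lay below vehicle 6 and level with vehicle 5, and the other 5 epinephrine libraries lay above every vehicle library. The mean went from 39.9 ± 8.77 to 57.3 ± 5.88 CPM (SD, n = 6 each), a log2 fold change of 0.52 (SE 0.14, edgeR adjusted p = 0.0435). That call ended once replicate number entered as a block (edgeR adjusted p = 0.104), without vehicle 2, epinephrine 1 and epinephrine 2 (0.0797), and without each of vehicle 1, 3 and 4 and epinephrine 1 to 5 left out in turn (0.0551 to 0.103).

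**Figure D2:**
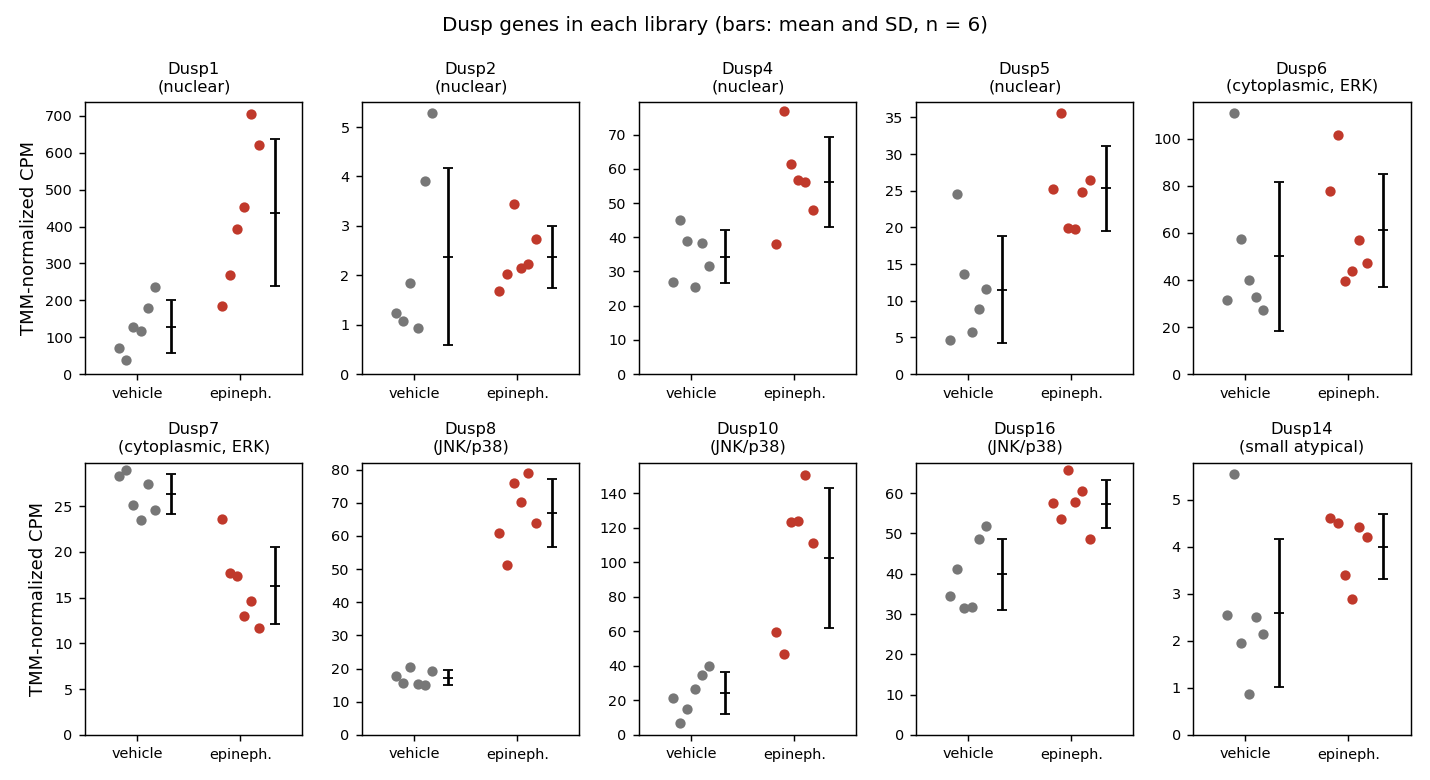
TMM-normalized CPM of each gene (y axes start at 0 and differ between panels) in the 6 vehicle libraries (grey) and the 6 epinephrine libraries (red), in order of replicate number, with the mean and SD beside them. Dusp8 and Dusp10 are the panels in which the groups do not overlap, and the vehicle libraries of Dusp6 and Dusp14 each include a high one, vehicle 2.

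Among the nuclear inducible genes, Dusp1 and Dusp4 rose. Dusp1 encodes the founding MAP kinase phosphatase, an immediate early gene product that acts on p38, JNK and ERK. It lay between 36.9 and 236 CPM (median 122) with vehicle and between 185 and 705 CPM (median 423) with epinephrine. Epinephrine 1, at 185 CPM, lay below vehicle 6, at 236 CPM, and the other 5 epinephrine libraries lay above every vehicle library. The mean went from 128 ± 71.9 to 437.5 ± 200 CPM (SD, n = 6 each), a log2 fold change of 1.77 (SE 0.45, edgeR adjusted p = 0.0377).

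Dusp1 varied more between mice than Dusp8. Its SD was 56.2% of the mean with vehicle and 45.7% with epinephrine, against 13.1% and 15.4% for Dusp8. The Dusp1 call ended without each of vehicle 1, 3, 4 and 5 and epinephrine 3 to 6 left out in turn (edgeR adjusted p = 0.0557 to 0.0885, log2 fold change 1.59 to 1.89). It was kept without vehicle 2, epinephrine 1 and epinephrine 2 (log2 fold change 1.90, edgeR adjusted p = 0.00777), which were also the lowest Dusp1 libraries of their groups. With the epididymal score (the mean log2 CPM of the epididymal markers) as a covariate the log2 fold change was 1.92 (edgeR adjusted p = 0.000445). It was 1.86 among replicate numbers 1 to 3 (SE 0.52, edgeR adjusted p = 0.45) and 1.74 among numbers 4 to 6 (SE 0.29, edgeR adjusted p = 0.022). The estimates were thus of similar size, but the call was made only in numbers 4 to 6, and no gene at all passed in numbers 1 to 3.

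Listed age as a covariate changed most of these calls. Within each group listed age follows replicate number, and no listed age occurs in both groups. The fit therefore extends the trend over replicate number within groups across to the other group, and cannot tell listed age from replicate number. With it 1 of the 10 genes was higher, Dusp8, and 0 were lower, while among all genes 14.5% were called higher and 9.45% lower. The log2 fold change of Dusp8 was then 1.77 (edgeR adjusted p = 0.00219). That of Dusp1 turned to -0.55 (edgeR adjusted p = 0.328) and that of Dusp10 was 0.42 (edgeR adjusted p = 0.59). Dusp4 stood at 0.80 (edgeR adjusted p = 0.135), Dusp16 at 0.27 (edgeR adjusted p = 0.432) and Dusp7 at -0.07 (edgeR adjusted p = 0.806). Dusp6, at 1.67 (SE 0.64, edgeR adjusted p = 0.0757), and Dusp2, at -1.51 (edgeR adjusted p = 0.0875), did not pass. Within each group Dusp1 was lower in the mice listed as younger: vehicle 1 to 3 lay between 36.9 and 127 CPM and vehicle 4 to 6 between 117 and 236 CPM, and epinephrine 1 to 3 between 185 and 394 CPM and epinephrine 4 to 6 between 452 and 705 CPM. These are also the numbers in which epididymal transcripts were more and less abundant.

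Dusp4, encoding a nuclear phosphatase for ERK, JNK and p38, had a smaller fold change than Dusp1, a difference not called in either test below. It lay between 25.6 and 45.1 CPM (median 34.9) with vehicle and between 38.02 and 77.0 CPM (median 56.4) with epinephrine. Epinephrine 1, at 38.02 CPM, was the one epinephrine library within the vehicle range. Its log2 fold change of 0.71 (SE 0.18, edgeR adjusted p = 0.04) came with means of 34.4 ± 7.64 and 56.2 ± 13.1 CPM (SD, n = 6 each). The call held without vehicle 2 and without epinephrine 1 and ended without any other single library (edgeR adjusted p = 0.0527 to 0.0918).

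Dusp5, an ERK-specific nuclear phosphatase gene, lay between 4.70 and 24.6 CPM (median 10.2) with vehicle and between 19.8 and 35.6 CPM (median 25.1) with epinephrine. Vehicle 2 was the one vehicle library inside the epinephrine range, at 24.6 CPM, the others being at 13.7 CPM or less. The log2 fold change was 1.13 (SE 0.36, 95% interval 0.35 to 1.92), and it did not pass over all genes (edgeR adjusted p = 0.0978). It passed without vehicle 2 (log2 fold change 1.54, edgeR adjusted p = 0.00877), in the fit blocked on replicate number (1.32, 0.041), without vehicle 2, epinephrine 1 and epinephrine 2 together (1.35, 0.0226) and in DESeq2 (1.16, adjusted p = 0.0182).

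Dusp2, a nuclear phosphatase gene best known from lymphocytes and other blood cells, was among the lowest of the 10. It had 30 to 179 reads with vehicle and 45 to 82 reads with epinephrine per library. It lay between 0.929 and 5.28 CPM (median 1.54) with vehicle and between 1.67 and 3.44 CPM (median 2.19) with epinephrine. Vehicle 5 and vehicle 6, at 3.90 and 5.28 CPM, were the highest of all libraries and the other vehicle libraries were at 1.85 CPM or less. In the same 2 libraries 5 neutrophil markers summed to 52.6 and 68.2 CPM, while the other 4 vehicle libraries had 7.19 to 17.2 CPM. The remaining library with a high sum, epinephrine 3 at 60.7 CPM, was the highest in its group for Dusp2, at 3.44 CPM. The 6 T cell markers summed to 8.12 to 10.6 CPM with vehicle and 6.14 to 11.9 CPM with epinephrine. The part of these cells in the Dusp2 values was not tested. The log2 fold change was -0.0041 (SE 0.43, 95% interval -0.95 to 0.94, edgeR adjusted p = 0.999), an interval that leaves room for a change of either sign.

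Of the ERK-selective cytoplasmic genes Dusp6 and Dusp7, 1 fell and the other did not pass the test. Dusp7 encodes a cytoplasmic ERK phosphatase closely related to DUSP6. It lay between 23.5 and 28.9 CPM (median 26.3) with vehicle and between 11.7 and 23.6 CPM (median 16.0) with epinephrine. Epinephrine 1, at 23.6 CPM, just exceeded vehicle 4, at 23.5 CPM, and the other 5 epinephrine libraries lay below every vehicle library. The mean fell from 26.3 ± 2.20 to 16.3 ± 4.25 CPM (SD, n = 6 each), a log2 fold change of -0.69 (SE 0.15, edgeR adjusted p = 0.019). The call ended without epinephrine 4 (edgeR adjusted p = 0.0606), and the fold change was -0.86 without vehicle 2, epinephrine 1 and epinephrine 2. Under every scaling tried it stayed lower, from -0.66 with RLE scaling to -0.79 with library size alone.

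Dusp6 encodes the classical cytoplasmic ERK phosphatase, itself a target gene of ERK signalling. It lay between 27.1 and 111 CPM (median 36.6) with vehicle and between 39.7 and 102 CPM (median 52.1) with epinephrine. The 3 highest libraries were vehicle 2, epinephrine 2 and epinephrine 1, at 111, 102 and 77.6 CPM, the same 3 in which epididymal transcripts were most abundant. The log2 fold change was 0.29 (SE 0.37, 95% interval -0.51 to 1.10, edgeR adjusted p = 0.819), and 0.32 without those 3 libraries (edgeR adjusted p = 0.384). Without vehicle 2 alone it was 0.73 (SE 0.28, edgeR adjusted p = 0.163).

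Dusp14 lay between 0.869 and 5.56 CPM (median 2.33) with vehicle and between 2.90 and 4.61 CPM (median 4.32) with epinephrine, on 29 to 154 reads per library. Vehicle 2 was again the highest vehicle library, and the other 5 were at or below 2.55 CPM. The log2 fold change was 0.63 (SE 0.35, 95% interval -0.13 to 1.38, edgeR adjusted p = 0.409). Without vehicle 2 it was 1.03 (edgeR adjusted p = 0.0409). With every library kept, limma-voom with sample weights, an alternative test, gave 1.17 (adjusted p = 0.01655).

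Whether members responded differently was tested on the log2 ratio of 2 genes within each library, over all 45 pairs (exact two-sided permutation tests, smallest possible p = 0.00216, Benjamini-Hochberg over the 45 pairs). The ratio changed in 19 pairs, 4 of 10 within a type and 15 of 35 across types. These tests do not pair the libraries by replicate number. A sign-flip test that does (exact, two-sided, added after the data were seen) can give no p below 0.0312, which 25 of the 45 pairs reached, and 0 then passed after adjustment (0.0562 for those 25). Within the JNK/p38-selective type, Dusp8 rose more than Dusp16 by 1.40 on the log2 scale (SE 0.17, exact permutation p = 0.00216, adjusted p = 0.00974). Dusp10 rose more than Dusp16 by 1.63 (SE 0.43, exact permutation p = 0.00216, adjusted p = 0.00974). In both cases all 6 epinephrine libraries had a higher ratio than every vehicle library. For Dusp8 against Dusp10 the difference was -0.23 (SE 0.42, exact permutation p = 0.617, adjusted p = 0.677), and with this spread a difference of that size is not told from 0.

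Within the nuclear type, Dusp1 rose more than Dusp2 by 1.59 (SE 0.36, exact permutation p = 0.00649, adjusted p = 0.0225). Dusp1 and Dusp4 differed by 1.16 (SE 0.54, exact permutation p = 0.0476, adjusted p = 0.107). Paired by number, the same difference had an SE of 0.21, was positive in 6 of 6 pairs of libraries and gave p = 0.0312 (exact sign-flip test, adjusted p = 0.0562). The difference was not called by either test. Dusp1 and Dusp5 differed by 0.54 (SE 0.70, exact permutation p = 0.502, adjusted p = 0.565). Within the ERK-selective type the ratio of Dusp6 to Dusp7 was higher with epinephrine by 1.12 (SE 0.34, exact permutation p = 0.013, adjusted p = 0.0365). That call ended when vehicle 1, 3, 4, 5 or 6 or epinephrine 2, 5 or 6 was left out (highest adjusted p = 0.067). Across types, the ratio of Dusp7 to each of Dusp8, Dusp10 and Dusp16 was lower with epinephrine, by 2.67, 2.89 and 1.27 on the log2 scale (exact permutation p = 0.00216 and adjusted p = 0.00974 for each). Dusp1 and Dusp8, a nuclear and a JNK/p38-selective gene, differed by -0.082 (SE 0.45, exact permutation p = 0.864, adjusted p = 0.864).

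**Figure D3:**
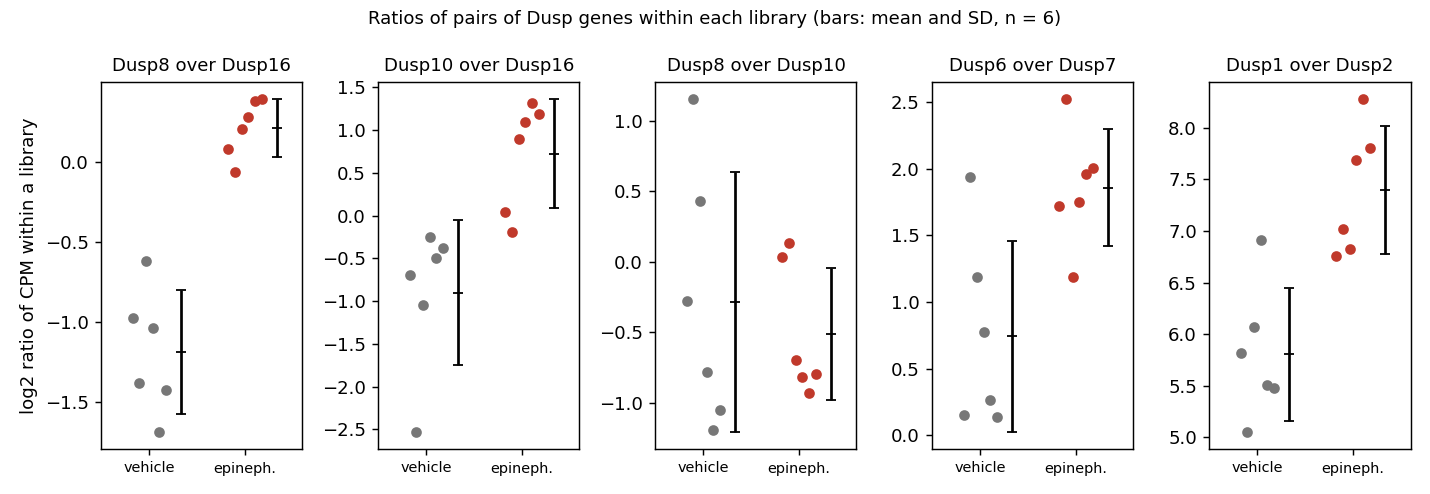
Log2 ratio of CPM of 2 genes within each library (y axis) for 5 pairs, in vehicle (grey) and epinephrine (red) libraries, with the mean and SD beside them. The epinephrine libraries lie above every vehicle library for Dusp8 over Dusp16 and Dusp10 over Dusp16, and overlap with them for Dusp8 over Dusp10.

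Levels of different genes were compared as CPM per kilobase of the listed gene length. With vehicle, Dusp1 was highest on this scale at 65.8 ± 37.0, followed by Dusp6 at 17.9 ± 11.4, Dusp4 at 14.2 ± 3.15, Dusp5 at 9.99 ± 6.30, Dusp10 at 8.88 ± 4.48, Dusp7 at 8.19 ± 0.686 and Dusp16 at 7.81 ± 1.72 CPM per kb (SD, n = 6 each). Dusp8, at 3.58 ± 0.469, Dusp14, at 1.80 ± 1.09, and Dusp2, at 1.47 ± 1.11 CPM per kb, were the lowest (SD, n = 6 each). Neighbours in this order overlapped in range except Dusp16 and Dusp8.

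With epinephrine, Dusp1 stood apart from the next gene, at 225 ± 103 against 37.8 ± 15.0 CPM per kb for Dusp10 (SD, n = 6 each). Dusp10 moved from the fifth place to the second, and Dusp8, at 13.9 ± 2.13 CPM per kb, from the eighth to the sixth. Dusp7, at 5.08 ± 1.32 CPM per kb, lay below Dusp16 and above Dusp14 without overlap (SD, n = 6 each). Other neighbours in the order overlapped in range.

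Summed per library, the JNK/p38-selective genes lay between 13.9 and 28.8 CPM per kb (median 18.7) with vehicle and between 38.4 and 83.7 CPM per kb (median 67.7) with epinephrine. The nuclear genes, of which Dusp1 gave the largest part, summed to between 53.0 and 148 CPM per kb (median 85.2) with vehicle and between 134 and 409 CPM per kb (median 261) with epinephrine. The ERK-selective genes lay between 17.4 and 48.7 CPM per kb (median 21.0) and between 19.6 and 41.9 CPM per kb (median 22.7). Libraries of the 2 groups therefore did not overlap in the JNK/p38-selective sum, overlapped by epinephrine 1 in the nuclear sum and overlapped in the ERK-selective sum. The ERK-selective genes made up 20.0% ± 10.3 of the summed level of the 10 genes in vehicle libraries and 8.54% ± 5.35 in epinephrine libraries (SD, n = 6 each). No test was made on these sums, which the larger members dominate.

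**Figure D4:**
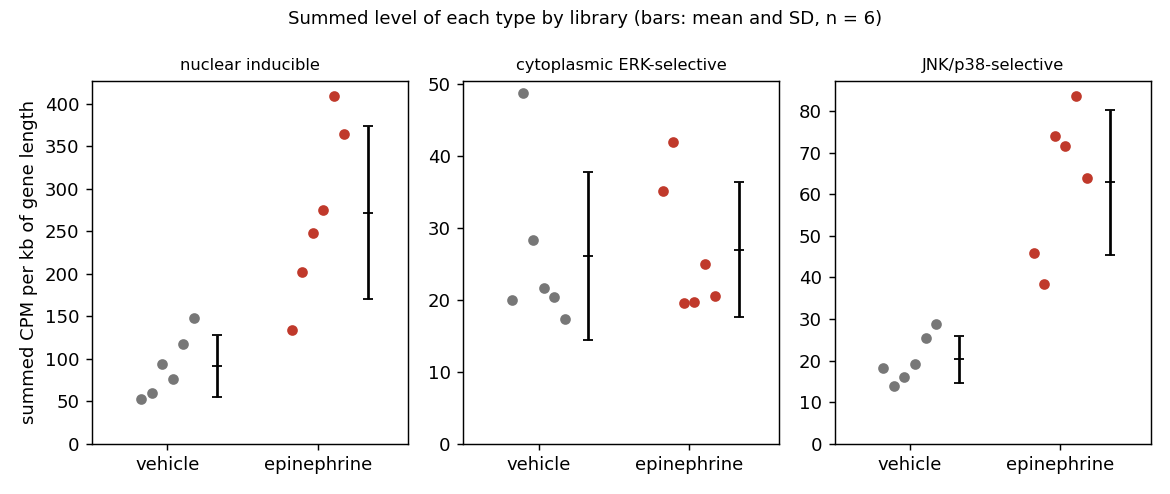
Summed CPM per kb of gene length (y axes start at 0 and differ between panels) of each type in vehicle (grey) and epinephrine (red) libraries, in order of replicate number, with the mean and SD beside them. The JNK/p38-selective sums of the 6 epinephrine libraries, from 38.4 to 83.7, lie above all vehicle sums, and the ERK-selective sums overlap, vehicle 2 being the highest at 48.7.

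The kinases that these phosphatases act on, and the kinases above and below them, gave few calls, as did genes at large. Over all genes tested, edgeR called 2.65% higher and 3.58% lower. The shares were 4.7% and 5.48% in DESeq2, and 6.34% and 9.29% in limma-voom with sample weights. They also apply to the phosphatase and marker lists that follow. Of 13 MAP kinase genes 1 was higher and 0 lower in edgeR, with a median log2 fold change of 0.038. At an unadjusted p under 0.05 edgeR counted 2, DESeq2 called the same gene alone, and limma-voom with sample weights also called Mapk7 lower. The higher one, Mapk6, encodes ERK3, an atypical kinase outside the ERK, JNK and p38 groups, and had 110 ± 45.6 CPM with vehicle against 216 ± 29.6 CPM with epinephrine (SD, n = 6 each), a difference of 0.97 in log2 (SE 0.24, edgeR adjusted p = 0.0327). Of 7 MAP2K genes, whose products phosphorylate the MAP kinases, 0 passed, with Map2k7 and Map2k6 nearest at log2 fold changes of -0.12 (edgeR adjusted p = 0.194) and 0.32 (edgeR adjusted p = 0.214). At an unadjusted p under 0.05 the count was 2 (these genes), DESeq2 called 0, and limma-voom with sample weights called both. Of 21 MAP3K genes tested with edgeR (3 at an unadjusted p under 0.05), 0 were higher and 1, Map3k11, which encodes a kinase upstream of JNK, was lower, by a log2 fold change of -0.28 with SE 0.070 (edgeR adjusted p = 0.0385, or 0.0801 when blocked on replicate number). DESeq2 called Map3k11 alone, and limma-voom also called Map3k5 and Map3k6 higher. Of 11 genes of kinases activated by MAP kinases, Mapkapk2, a p38 substrate, was higher, at a log2 fold change of 0.37 with SE 0.092 (edgeR adjusted p = 0.0351), and Rps6ka1, an ERK substrate, was lower, at a log2 fold change of -0.51 with SE 0.11 (edgeR adjusted p = 0.0206). Leaving out single libraries ended the call of Mapk6 in 8 of 12 cases, of Map3k11 in 10, of Mapkapk2 in 8 and of Rps6ka1 in 3. With listed age as a covariate Mapk6 was at 0.053 (edgeR adjusted p = 0.913) and Mapkapk2 at 0.005 (edgeR adjusted p = 0.981), and both calls ended. The calls of Map3k11, at -0.51 (edgeR adjusted p = 0.016), and Rps6ka1, at -0.89 (edgeR adjusted p = 0.0142), were kept in that fit. It called 9.45% of all genes lower.

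Other phosphatase genes, listed by family or motif and not by action on MAP kinases, gave 1 call in edgeR. Of 13 other dual-specificity phosphatase genes tested with edgeR, 1 was higher and 0 were lower, with a median log2 fold change of -0.061. At an unadjusted p under 0.05 the count was 3, DESeq2 called 1 higher and 0 lower, and limma-voom also called Dusp11, Dusp12 and Dusp26 lower. The higher one was Dusp9, which encodes an ERK-preferring cytoplasmic phosphatase of the same group as Dusp6 and Dusp7, at a low level. It lay between 1.01 and 3.68 CPM with vehicle and between 4.57 and 8.08 CPM with epinephrine, without overlap. Its log2 fold change was 1.45 with SE 0.28 (edgeR adjusted p = 0.00987), and the call held in 12 of 12 cases with a library left out. With listed age as a covariate it was 0.58 (edgeR adjusted p = 0.348). Of 3 tyrosine phosphatase genes whose products carry a kinase interaction motif, 0 passed in edgeR, 1 at an unadjusted p under 0.05, 0 in DESeq2, and Ptpn7 alone, lower, in limma-voom (log2 fold change -0.61, adjusted p = 0.0122). In edgeR Ptpn7 had a log2 fold change of -0.62 (edgeR adjusted p = 0.145, 0.037 when blocked on replicate number and 0.0253 with listed age) and Ptprr of 0.37 (edgeR adjusted p = 0.639).

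Other cell types in the tissue gave few calls: 0 of 6 macrophage, 0 of 6 T cell, 0 of 4 B cell, 0 of 4 neutrophil, 0 of 5 progenitor and 0 of 5 mesothelial markers passed in edgeR, and likewise in DESeq2. At an unadjusted p under 0.05 edgeR gave 1 T cell marker and 0 of the other 5 lists. Limma-voom with sample weights also called 0 in these 6 lists. The exceptions were Cldn5, higher among 6 endothelial markers, and Tagln, higher among 5 smooth muscle and pericyte markers. At an unadjusted p under 0.05 edgeR gave 1 endothelial marker and 2 smooth muscle and pericyte markers. DESeq2 called the same genes, Cldn5 and Tagln, and limma-voom with sample weights also called Acta2 higher. The endothelial markers summed to 475 to 1131 CPM with vehicle and 550 to 1204 CPM with epinephrine, and the smooth muscle and pericyte markers to 430 to 665 and 610 to 747 CPM. Their part in the phosphatase results was not tested.

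Genes with the most similar pattern were sought among 13092 genes by Pearson's r of log2 CPM over the 12 libraries, as a description. Dusp8 was most like Nr4a2 (r = 0.99), an orphan nuclear receptor gene, and Hspa1a and Hspa1b (r = 0.99 each), near-identical Hsp70 genes. Dusp10 was most like Etv3, Sowahc and Ifrd1 (r = 0.98 to 0.99), and Dusp1 most like Plaur, Ptp4a1 and Actb (r = 0.97 to 0.98). Dusp4 was most like Tmem252, Six4 and Hmgcs1 (r = 0.91 each), Dusp16 most like Opa3, Eif1a and Ube2j2 (r = 0.95 to 0.96), and Dusp7 most like Wdr24, Zfp39 and Zbtb12 (r = 0.96 to 0.97).

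After the group means were subtracted, so that only variation among mice of one group counted, the nearest genes were others in all but Dusp4 and Dusp16. They were Hspbp1, Cwc25 and Rassf1 for Dusp8 (r = 0.80 to 0.84), C9orf72, Aldh6a1 and Ext1 for Dusp10 (r = 0.97 to 0.98), Slc6a13, Gpatch2l and Ddx24 for Dusp1 (r = 0.97 to 0.98) and Nxf1, Zdhhc16 and Tecr for Dusp7 (r = 0.95 to 0.96). Tmem252 remained among the nearest for Dusp4 (r = 0.84), beside Cmip and Sccpdh, and the same 3 genes remained nearest to Dusp16 (r = 0.89 to 0.90). These points share libraries, and within a group they also share the variation in epididymal transcripts.

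**Figure D5:**
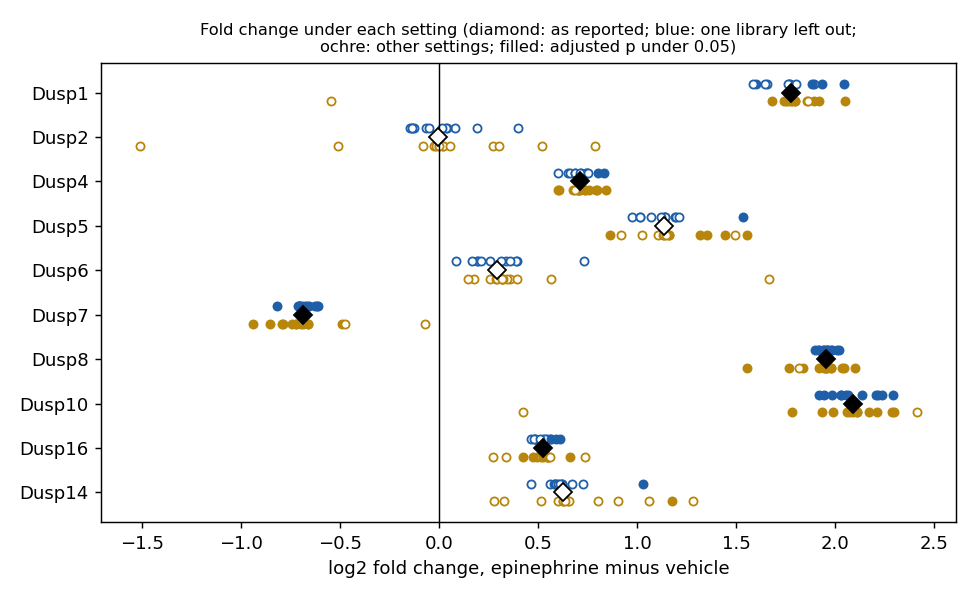
Log2 fold change of each gene (x axis) as reported (diamonds), with each library left out in turn (blue) and under the other settings (ochre), filled where the adjusted p was under 0.05. Dusp8 is filled under all settings but 1 (numbers 1 to 3 alone, where no gene passed), and the ochre point of Dusp1 at -0.55 is the fit with listed age.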

How the data were processed

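RNA was sequenced from eWAT of 12 mice. The authors deposited a table of raw counts of reads per gene (27179 genes, per the file headers) and a table of variance-stabilized values on a log2-like scale for 20185 genes, used in one alternative. FastQC, cutadapt, HISAT2, featureCounts, DESeq2 and the build mm10 are named in the submitters' processing notes. No source used here gives the strand setting or annotation. Reads of Dusp5, Dusp8 and Dusp16 therefore cannot be told apart from those of the antisense or opposite-strand genes that overlap them in GENCODE M21. Exon bases of the antisense gene 1700056E22Rik lie within an intron of Dusp10 transcripts there, so the same limit may apply to Dusp10. Rows with no symbol (1312, 0.253% to 0.315% of counts) were kept in library sizes and tests. No 2 libraries were identical.

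Counts were filtered with filterByExpr (minimum count 10, minimum total 15), scaled with TMM and tested with edgeR 4.0.16 (R 4.3.3; glmQLFit with robust dispersion, glmQLFTest), epinephrine against vehicle, with Benjamini-Hochberg adjustment over 16175 genes. Standard errors are the unshrunk log2 fold change divided by the square root of F. The 95% intervals use the fitted degrees of freedom. Log2 CPM used a prior count of 1. The test was checked on simulated counts. The alternatives used limma 3.58.1, DESeq2 1.42.0 and other scalings, filters, covariates and subsets of libraries. Sequences are from RefSeq (GRCm38.p6). The series' design text calls the mice biological replicates. Deviations from the group means correlated between libraries of the same number (r = 0.262 to 0.799 across genes, all 6 above 0.1), which counts as paired here; only 3 of the 12 libraries correlated best with their own number, and the main fit has no block.

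The members, types, lists and tests were chosen with earlier results of these data known. Named genes were all 10 members, up to 4 called genes (or else the 2 with the smallest p) of each kinase or phosphatase list, and the 3 genes most like each called member. Markers, and other genes in counts of 5 or fewer, are named in addition.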

Additional observations from a re-analysis of the deposited data

Results flagged for a closer look

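In 3 of 26 sets of 6 values examined (10 genes and 3 type sums in 2 groups), the highest library was farther from the rest than Dixon's 95% limit for 6 samples, a gap over the range of 0.625. Chance flags about 1 set in 20. All 3 were vehicle 2. Dusp6 was at 111 CPM there against 57.2 CPM in the next vehicle library (gap over range 0.641). Dusp14 was at 5.56 CPM against 2.55 CPM (0.641), and the sum of the ERK-selective genes, which holds Dusp6, at 48.7 against 28.3 CPM per kb (0.651). Epididymal markers also summed highest in this library, at 40280 CPM.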

How the results depend on the processing

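The call of Dusp8 was kept under every alternative except numbers 1 to 3 alone, where no gene passed, and Dusp10 except there, with listed age and at a threshold of 0.01. The count of higher members was 5, and 2 with no filter on low counts (1.63% of all genes called higher), 1 at a threshold of 0.01 (1.41%), 1 with listed age as a covariate (14.5%) and 0 with numbers 1 to 3 alone (0%). It was 7 with limma-voom with sample weights (6.34%), 6 with DESeq2 (4.7%) and 6 with limma on the deposited values (2.33%). The count of lower members, 1, was 0 with listed age (9.45% of all genes called lower), with numbers 1 to 3 alone (0%) and at 0.01 (1.14%). With one library left out it ranged from 2 to 7 higher (1.94% to 3.38% of all genes called higher) and from 0 to 1 lower. It was 2 higher without vehicle 1, 3 or 4 or epinephrine 3, 4 or 5, 3 without vehicle 5, epinephrine 2 or epinephrine 6, and 7 without vehicle 2, and 0 lower without epinephrine 4. With the replicate block it was 5 higher (2.38% of all genes) and 1 lower (2.26%): Dusp5 passed at 1.32 and Dusp16 did not at 0.55. Map3k11 did not pass and Ptpn7 did. No other call of a member changed, nor did those of Mapk6, Map2k6, Map2k7, Mapkapk2, Rps6ka1, Dusp9 and Ptprr. Cell type markers and the remaining list genes were not followed under the block. The block moved the count of lower genes over all genes from 579 to 365.

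Dusp1 turned to -0.55 and Ptprr to -0.84 with listed age. Dusp2, near 0, changed sign with RLE scaling (0.021), DESeq2 (0.020), limma-voom (0.52), limma on the deposited values (0.057), the replicate block (0.27), the epididymal score (0.30), without vehicle 2, epinephrine 1 and epinephrine 2 (0.00048) and in numbers 1 to 3 (0.79), and ranged from -0.15 to 0.40 with one library left out. The difference of Dusp1 against Dusp5 ranged from -0.036 to 0.76 and that of Dusp8 against Dusp10 from -0.41 to 0.063. Pairing libraries by number, as in the replicate block, left 0 changed pairs of genes after adjustment. That 0 reflects the resolution of the exact sign-flip test, in which 25 of the 45 pairs reached the smallest possible p, 0.0312 (adjusted 0.0562). The count of changed pairs was otherwise 19 with either other prior count, 22 without the 3 libraries and 14 to 20 with one left out. The cause of the other shifts was not tested. Depth limits Dusp2 and Dusp14, with at most 179 and 154 reads in a library.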
